A study of Homo sapiens with 24 samples.

Results

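The 8 genes described here encode proteins of the PML nuclear body and of the SUMO pathway that acts on it, namely PML, SP100, SP110, SUMO2, SUMO3, SENP1, SENP6 and PIAS1. They were chosen by name, found in the count table by their Ensembl IDs, and are 8 of its 57736 genes. All 8 passed the filter on low counts in both series, with 99 counts (PIAS1) to 10513 counts (SUMO2) in a library. PML bodies are nuclear structures that assemble on the PML protein when PML carries SUMO, a small protein joined to other proteins much as ubiquitin is. SUMO is attached through an E1, an E2 and E3 ligases and is taken off again by SENP proteases. DAXX, which binds SUMO and resides in PML bodies, and its partner ATRX form a chaperone of histone H3.3, and in cells that maintain telomeres by recombination (ALT) PML bodies gather at telomeres.

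The libraries were made by QuantSeq, which counts the 3′ ends of polyadenylated RNA, from U87-T cells, a human glioblastoma line (U87) transduced with TERT. They fall into a DAXX series and a separate ATRX series with its own WT cells, and each comprised 4 groups of 3 libraries, from WT and knockout cells, in control and with etoposide, a topoisomerase II inhibitor that leaves breaks in DNA. WT stands for U87-T cells with an empty Cas9 vector and a TERT transgene. DAXX_KO and ATRX_KO are each 1 ALT-positive clone grown from a single CRISPR/Cas9-edited cell, so the knockout and the clone cannot be told apart. Control cells are labelled as untreated, and the dose and duration of etoposide for these libraries are not given in the sources used here. The study describes the replicates of its experiments in general as biological, and how the 3 libraries of a group were grown is not given in the sources used here, so the p-values measure the spread between these libraries. Library totals were 6928950 to 13298557 counts. DAXX mRNA was 34.5 ± 1.27 CPM (mean ± SD, n = 3) in WT control and 5.92 ± 1.08 in DAXX_KO control, and ATRX mRNA was 189.5 ± 5.07 in WT and 79.4 ± 5.73 in ATRX_KO, so each targeted gene was lower in the line named for it. The genes VIM, CD44, FN1, SPARC, CAV1, S100A6 and NES, chosen as markers of U87, had at least 183 counts in every library. Of the astrocytic and glial markers, GFAP, S100B and AQP4 had at most 6, 0 and 1 counts, whereas SOX2 and OLIG2 reached 59 and 17 counts in a library. Of the genes known to be deleted in U87, CDKN2A and CDKN2B had at most 9 and 1 counts, but MTAP had 5 to 36 and was above 0 in every library.

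Levels are CPM, a gene's counts per 1000000 counts of its library after TMM scaling, and are compared between groups for 1 gene at a time. Changes are log2 fold changes with their standard error (SE) from edgeR's quasi-likelihood test over the 12 libraries of a series, with p-values adjusted over all genes tested by the Benjamini-Hochberg method. A gene is called higher or lower where the adjusted p is below 0.05. The comparisons within a series share libraries, so they are given side by side and were not correlated with each other. The libraries are bulk RNA, in which a change in every cell and a change in the share of some cells cannot be told apart.

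SUMO2 and SUMO3 are close paralogs that moved in opposite directions in DAXX_KO, so their coding sequences are shown to let a reader see how alike they are. SUMO2 (ENSG00000188612, chromosome 17, 73161681 to 73179054, minus strand of GRCh37) and SUMO3 (ENSG00000184900, chromosome 21, 46225532 to 46238694, minus strand) are given from the start codon, 5′ to 3′, as in the canonical transcripts of GENCODE release 44 placed on GRCh37. SUMO2 is whole, with its stop codon, and SUMO3 is shown to base 300, without its last 12 bases. Capitals mark bases that differ between the paralogs or have no partner in the alignment.
SUMO2: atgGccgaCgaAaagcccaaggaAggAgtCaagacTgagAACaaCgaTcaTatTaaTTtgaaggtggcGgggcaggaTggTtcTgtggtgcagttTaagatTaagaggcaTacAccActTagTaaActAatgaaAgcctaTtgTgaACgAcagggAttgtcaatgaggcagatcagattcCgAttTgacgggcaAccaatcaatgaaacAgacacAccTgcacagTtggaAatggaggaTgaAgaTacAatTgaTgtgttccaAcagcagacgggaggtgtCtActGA
SUMO3: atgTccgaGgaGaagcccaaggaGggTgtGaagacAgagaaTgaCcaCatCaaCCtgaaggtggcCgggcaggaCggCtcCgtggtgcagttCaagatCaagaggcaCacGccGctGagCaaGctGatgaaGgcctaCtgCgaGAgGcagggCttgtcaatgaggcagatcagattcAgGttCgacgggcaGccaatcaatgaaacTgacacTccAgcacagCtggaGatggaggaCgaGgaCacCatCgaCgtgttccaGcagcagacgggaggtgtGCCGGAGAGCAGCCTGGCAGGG

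The coding sequences are 288 and 312 bases long and were identical at 232 of 285 aligned bases (81.4%). Most capitals stand alone, at single bases within codons, and the longest stretch of capitals is the tail of SUMO3 that SUMO2 lacks. The longest run shared by both coding sequences was 24 bases, and the longest shared by the last 500 bases of any annotated SUMO2 and SUMO3 transcript was 33 bases, both shorter than the 75-base reads. Since the libraries count 3′ ends, the comparison of the last bases bears on the reads more directly than that of the coding sequences. The 19 annotated pseudogenes of SUMO2 held 161 counts over the 24 libraries, compared with 116854 for SUMO2, which is 0.138%.

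**Figure D1:**
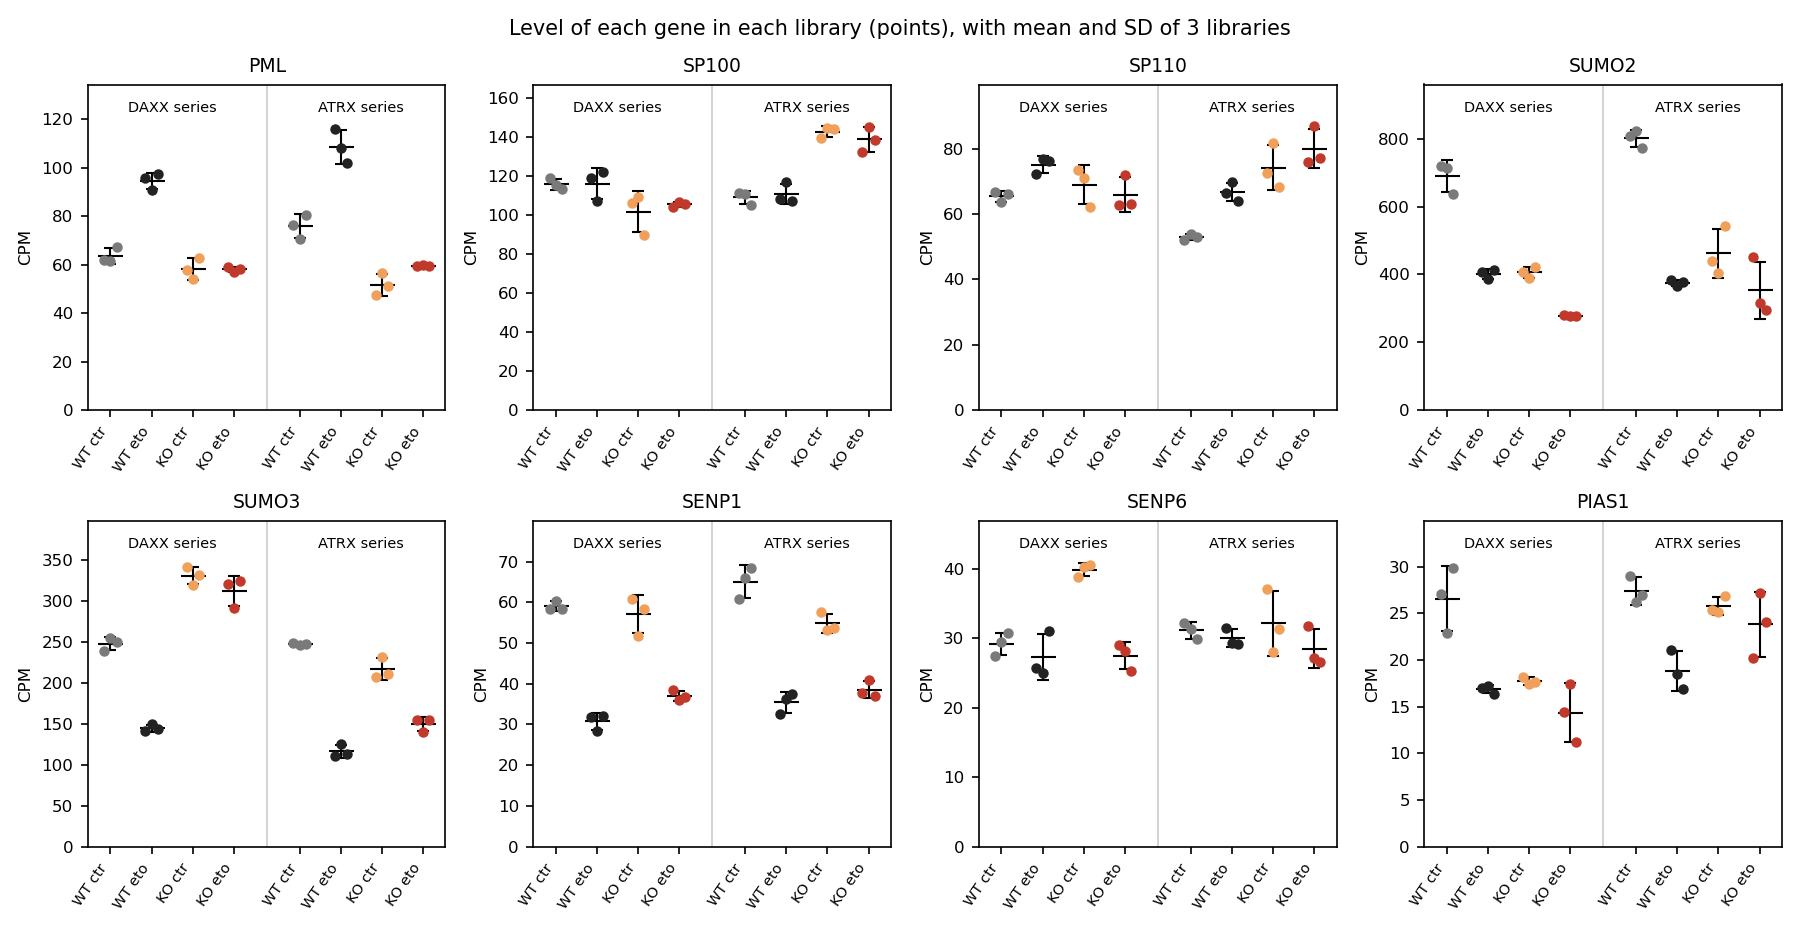
CPM of the 8 genes (y axes, from 0, with a scale of their own) in the 24 libraries, as points over the 4 groups of each series (x axes, ctr for control and eto for etoposide), with a bar for the mean and whiskers for the SD of 3 libraries. PML with etoposide stood at 95.6, 90.7 and 97.2 CPM in WT of the DAXX series and at 58.9, 57.0 and 58.1 in DAXX_KO, and SUMO3 was at 321, 291 and 325 CPM in DAXX_KO with etoposide and at 141, 149 and 143 in WT.

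In control cells SUMO2 mRNA was lower in both knockouts, SP100 was called in both with opposite signs, and the other genes were called in 1 knockout or in neither. In DAXX_KO, SUMO3 and SENP6 were higher and SUMO2, PIAS1 and SP100 were lower. In ATRX_KO, SP110 and SP100 were higher and SUMO2, PML and SENP1 were lower. That is 5 of the 8 genes in each knockout, while 53.4% of the 15247 genes tested were called in DAXX_KO and 41.8% of 16371 in ATRX_KO, so 5 of 8 is not far above the share among genes in general. The 8 genes had median log2 fold changes of −0.09 (DAXX_KO) and −0.13 (ATRX_KO), and all genes tested had 0.02 and 0.02. Of the 5 calls in DAXX_KO, 4 held under every alternative analysis and with every library left out in turn, SP100 being the exception, and 4 of 5 held in ATRX_KO, where the exception was SENP1.

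With etoposide, WT cells of both series showed the same 6 calls in the same directions, PML and SP110 higher and SUMO2, SUMO3, SENP1 and PIAS1 lower. The WT libraries of the series are separate. Of all genes tested, 60.2% were called in WT of the DAXX series, and 61.5% in WT of the ATRX series, so 6 of 8 is near the share among genes in general. In the knockouts 3 genes were called in each, all lower, against a background of 54.5% (27.8% lower) in DAXX_KO and 49.5% (25.2% lower) in ATRX_KO. SUMO2 and SENP1 were lower with etoposide in both knockouts, SENP6 in DAXX_KO and SUMO3 in ATRX_KO. Of all genes, 26.8% and 24.3% were higher. The number of the 8 called higher was 0 in both by the main setting of edgeR and by DESeq2. At an unadjusted p under 0.05 it was 0 in DAXX_KO and 1 in ATRX_KO, which was PML. Under 4 of 8 alternative settings PML was called higher in ATRX_KO. Without replicate 2 of the ATRX_KO control libraries the number called in ATRX_KO was 5, as PML (0.26, adjusted p = 0.0261) and SENP6 (−0.28, adjusted p = 0.0475) passed. Between knockout and WT cells treated with etoposide, 5 genes were called in each series, against a background of 53% for DAXX_KO and 45.9% for ATRX_KO. That number was 3 without WT etoposide replicate 2 or DAXX_KO etoposide replicate 1 for DAXX_KO, and 3 without WT etoposide replicate 3 or ATRX_KO etoposide replicate 2 for ATRX_KO.

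**Figure D2:**
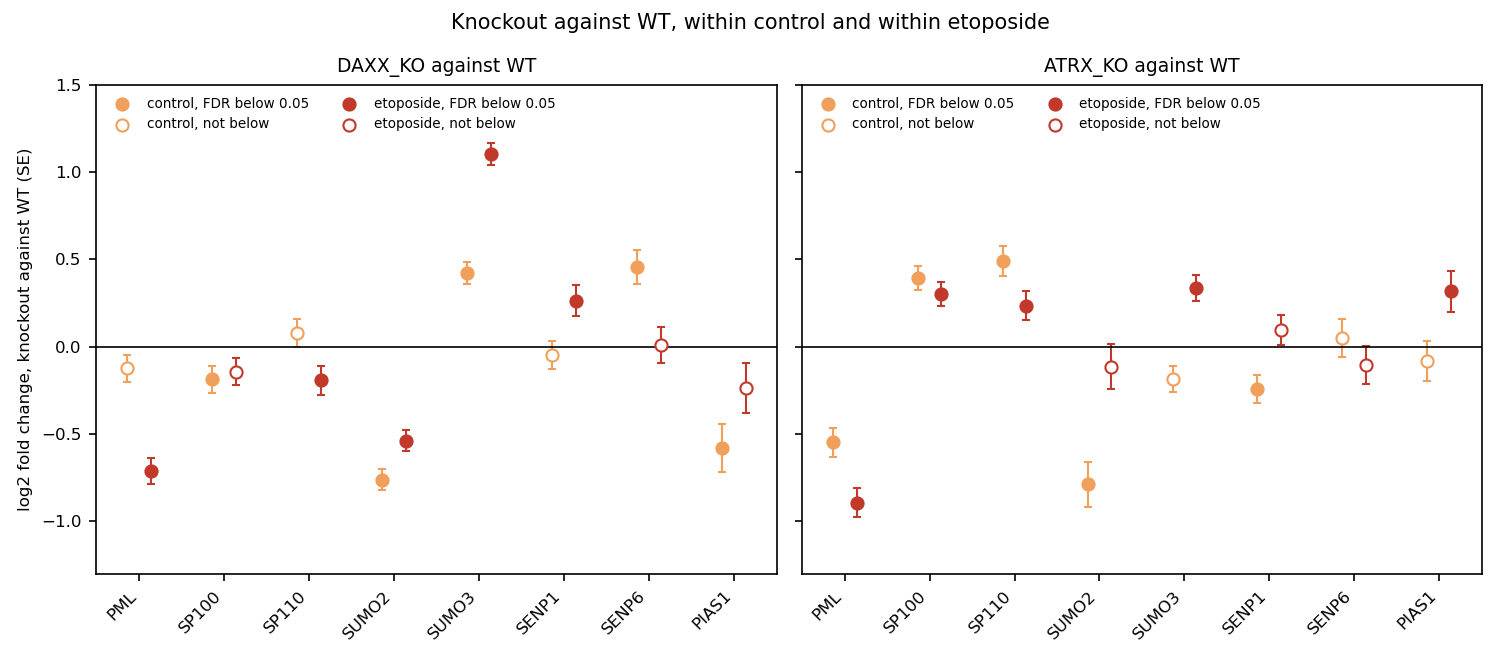
Log2 fold change of each gene in knockout against WT cells (y axis, points, with whiskers of 1 SE), within control (orange) and within etoposide (red), for DAXX_KO (left) and ATRX_KO (right). Filled points have an adjusted p below 0.05. SUMO3 in DAXX_KO with etoposide is the highest point at 1.10, and PML in ATRX_KO with etoposide the lowest at −0.89.

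PML (ENSG00000140464, chromosome 15, 74287014 to 74340168, plus strand), the scaffold protein of the bodies, rose with etoposide in WT cells of both series, whereas the DAXX_KO libraries with and without etoposide lay together. PML in the DAXX series was at 62.0, 61.5 and 67.3 CPM in the WT control libraries and at 95.6, 90.7 and 97.2 with etoposide. In DAXX_KO it was at 57.7, 54.0 and 62.8 in control and 58.9, 57.0 and 58.1 with etoposide. Every WT etoposide library was therefore above every other library of the series, and the groups of DAXX_KO overlapped. The log2 response was 0.59 (SE 0.07, adjusted p = 1.19e-06) in WT and 0.00 (SE 0.08, adjusted p = 0.986) in DAXX_KO, with a 95% confidence interval of −0.16 to 0.16. The difference between these responses, the interaction of knockout and etoposide, was −0.59 (SE 0.11, adjusted p = 0.000992), in a series in which 14.2% of genes had a called interaction. With etoposide, PML was lower in DAXX_KO than in WT, the log2 fold change being −0.71 (SE 0.07, adjusted p = 1.77e-07), but was not called in control cells (−0.13, adjusted p = 0.182).

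In the ATRX series PML was at 76.5, 70.7 and 80.3 CPM in WT control and at 116, 108 and 102 with etoposide, a log2 response of 0.54 (SE 0.08, adjusted p = 1.93e-05). The ATRX_KO libraries held 47.3, 56.5 and 51.1 CPM in control and 59.5, 60.0 and 59.2 with etoposide. All 6 ATRX_KO libraries were below all 6 WT libraries, and within ATRX_KO the etoposide libraries were above the control libraries without overlap. The log2 fold change of ATRX_KO against WT was −0.55 (SE 0.08, adjusted p = 4.57e-05) in control and −0.89 (SE 0.08, adjusted p = 1.60e-07) with etoposide, so that PML was at 0.683 and 0.538 of the WT level. The response within ATRX_KO was 0.20 (adjusted p = 0.0598) and the interaction −0.34 (adjusted p = 0.0538), both short of the threshold, although the response passed under 4 other settings and without ATRX_KO control replicate 2 (given above), and 16% of genes had a called interaction in this series. The interaction passed with all 24 libraries in one model (−0.31, adjusted p = 0.0408), with at least 10 counts required in every library (−0.35, adjusted p = 0.0424) and without replicate 1 of the ATRX_KO control libraries (−0.40, adjusted p = 0.0373). Over the 8 groups the mean of PML was highest with etoposide in WT cells, and among the DAXX_KO and ATRX_KO groups it stayed between 51.7 and 59.6 CPM.

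SP100 (ENSG00000067066, chromosome 2, 231280657 to 231410321, plus strand), which resides with PML in the bodies and carries SUMO, was not called with etoposide in any of the 4 comparisons, with log2 responses of 0.02, 0.06, 0.04 and −0.05 in WT of the DAXX series, DAXX_KO, WT of the ATRX series and ATRX_KO. It differed between the lines. Its level in the ATRX series was 111, 111 and 105 CPM in WT control, 108, 117 and 107 in WT with etoposide, 139, 144 and 144 in ATRX_KO control and 132, 145 and 138 in ATRX_KO with etoposide. Every ATRX_KO library was above every WT library. The differences were 0.39 (SE 0.07, adjusted p = 0.000203) in control and 0.30 (SE 0.07, adjusted p = 0.00183) with etoposide. Control libraries of the DAXX series held 119, 115 and 113 CPM in WT and 106, 109 and 89.6 in DAXX_KO, and the etoposide libraries 119, 107 and 122 and 104, 106 and 105. The DAXX_KO control libraries lay below those of WT, with replicate 3 farthest below. The difference in control was −0.19 (SE 0.08, adjusted p = 0.0488), but it was −0.10 (adjusted p = 0.298) without DAXX_KO control replicate 3 and −0.16 (adjusted p = 0.146) without WT control replicate 1, and the call was lost with 8 of the 12 libraries left out singly. With library totals alone in place of TMM it was 0.00 (adjusted p = 0.989).

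SP110 (ENSG00000135899, chromosome 2, 231029902 to 231090444, minus strand), a relative of SP100 encoded nearby on the same chromosome and known as an interferon-induced nuclear body protein, rose with etoposide in WT cells and was higher in ATRX_KO. SP110 in the ATRX series was at 52.1, 53.8 and 53.1 CPM in WT control, 66.5, 69.7 and 64.1 in WT with etoposide, 72.5, 81.8 and 68.2 in ATRX_KO control and 76.0, 86.9 and 77.1 in ATRX_KO with etoposide. The WT control libraries were below all others, the WT etoposide libraries overlapped those of ATRX_KO in control, and the ATRX_KO etoposide libraries were above those of WT. Etoposide changed it by 0.36 (SE 0.08, adjusted p = 0.00148) in WT and by 0.10 (adjusted p = 0.329) in ATRX_KO, and the interaction did not pass (−0.26, adjusted p = 0.158). ATRX_KO was above WT by 0.49 (SE 0.08, adjusted p = 0.00016) in control and by 0.23 (SE 0.08, adjusted p = 0.0291) with etoposide. The latter was 0.17 (adjusted p = 0.14) without ATRX_KO etoposide replicate 2 and 0.23 (adjusted p = 0.0683) without WT etoposide replicate 3. In the DAXX series the libraries held 66.7, 63.6 and 66.1 CPM in WT control, 72.2, 76.9 and 76.3 in WT with etoposide, 73.6, 71.2 and 62.2 in DAXX_KO control and 62.7, 72.1 and 63.1 in DAXX_KO with etoposide. The rise with etoposide in WT was 0.22 (SE 0.08, adjusted p = 0.0266) and lost its call with any of 4 libraries left out, where the adjusted p reached 0.0869. The difference of DAXX_KO from WT with etoposide (−0.19, adjusted p = 0.0493) was at the threshold and was lost with 9 of 12 libraries left out. It was also lost under 6 of 8 alternatives, DESeq2 among them (−0.21, adjusted p = 0.0536). In control the difference was 0.08 (adjusted p = 0.453), and with library totals alone 0.26 (adjusted p = 0.0116).

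SUMO2, which forms chains on its targets and is conjugated under stress, was the 1 gene of the 8 called lower in both knockouts in control cells and lower with etoposide in all 4 comparisons. Its level in the DAXX series was 719, 714 and 637 CPM in WT control, 406, 386 and 414 in WT with etoposide, 406, 390.1 and 422 in DAXX_KO control and 279.9, 277 and 277 in DAXX_KO with etoposide. The WT control libraries were far above the rest, WT with etoposide and DAXX_KO in control lay at the same height, and DAXX_KO with etoposide was lowest with hardly any spread. DAXX_KO differed from WT by −0.76 (SE 0.06, adjusted p = 3.56e-09) in control and −0.54 (SE 0.06, adjusted p = 5.03e-07) with etoposide, and etoposide changed SUMO2 by −0.76 (SE 0.06, adjusted p = 1.83e-09) in WT and −0.54 (SE 0.06, adjusted p = 4.04e-07) in DAXX_KO. The interaction was 0.22 (adjusted p = 0.0922), and it passed without WT control replicate 3 (0.28, adjusted p = 0.0368) and with DESeq2 (0.24, adjusted p = 0.0335).

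SUMO2 in the ATRX series was at 807, 822 and 774 CPM in WT control and 384, 366 and 377 with etoposide, and at 439, 405 and 542 in ATRX_KO control and 449.9, 315 and 294 with etoposide. Replicate 3 of the ATRX_KO control libraries and replicate 1 of the ATRX_KO etoposide libraries stood above the others of their groups, and the ATRX_KO groups overlapped. The knockout effect in control was −0.79 (SE 0.13, adjusted p = 0.000104), and the response to etoposide was −1.07 (SE 0.13, adjusted p = 1.80e-06) in WT and −0.40 (SE 0.13, adjusted p = 0.017) in ATRX_KO. The smaller response in ATRX_KO gave an interaction of 0.67 (SE 0.18, adjusted p = 0.0193), which held with each library left out. The response within ATRX_KO was less secure, at −0.27 (adjusted p = 0.0934) without control replicate 3, −0.32 (adjusted p = 0.0813) without etoposide replicate 2 and −0.29 (adjusted p = 0.0812) without etoposide replicate 3. With etoposide, ATRX_KO and WT were not told apart (−0.12, adjusted p = 0.491, 95% confidence interval −0.39 to 0.16), but without ATRX_KO etoposide replicate 1 SUMO2 was called lower, at −0.33 (adjusted p = 0.0112). The genes around SUMO2 on chromosome 17 were lower in both knockouts as well. Among the 30 tested genes on each side of it, the median change in control was −0.57 (DAXX_KO) and −0.33 (ATRX_KO) on the log2 scale, while with etoposide in WT it was 0.18 and 0.17. Between knockout and WT cells treated with etoposide the median was −0.47 (DAXX_KO) and −0.25 (ATRX_KO), and SUMO2 itself was at −0.54 and −0.12. The part of the surrounding genes in the knockout effect on SUMO2 was not tested.

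SUMO3, the paralog that forms chains as SUMO2 does, was higher in DAXX_KO and lower with etoposide in WT cells. In the DAXX series it was at 239, 255 and 250.1 CPM in WT control, 141, 149 and 143 in WT with etoposide, 342, 320.2 and 332 in DAXX_KO control and 321, 291 and 325 in DAXX_KO with etoposide. All 6 DAXX_KO libraries were above all 6 WT libraries, and the groups of DAXX_KO overlapped. DAXX_KO exceeded WT by 0.42 (SE 0.06, adjusted p = 1.18e-05) in control and by 1.10 (SE 0.06, adjusted p = 4.76e-11) with etoposide, a 2.15-fold difference. The response was −0.76 (SE 0.06, adjusted p = 3.97e-09) in WT and −0.08 (SE 0.06, adjusted p = 0.313) in DAXX_KO, with a 95% confidence interval of −0.21 to 0.05 in the latter. The interaction was 0.68 (SE 0.09, adjusted p = 3.51e-05). With library totals alone the response in DAXX_KO was −0.18 (adjusted p = 0.0133).

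SUMO3 in the ATRX series was at 248, 246 and 247 CPM in WT control, 110.4, 125 and 113 in WT with etoposide, 207, 232 and 211 in ATRX_KO control and 155, 140.2 and 155 in ATRX_KO with etoposide. The order of the groups without overlap was WT control, ATRX_KO control, ATRX_KO with etoposide and WT with etoposide, from high to low. Etoposide changed SUMO3 by −1.06 (SE 0.07, adjusted p = 2.05e-09) in WT and −0.54 (SE 0.07, adjusted p = 1.15e-05) in ATRX_KO, with an interaction of 0.52 (SE 0.10, adjusted p = 0.00283). ATRX_KO exceeded WT by 0.34 (SE 0.07, adjusted p = 0.00134) with etoposide. In control SUMO3 fell just short of the threshold in ATRX_KO, at −0.19 (SE 0.07, adjusted p = 0.05), with no overlap of the groups. The adjusted p was 0.0184 with DESeq2 and between 0.0271 (without ATRX_KO control replicate 2) and 0.175 with 1 library left out. This effect also passed under 3 other settings and without ATRX_KO etoposide replicate 1 (−0.19, adjusted p = 0.0378) or 2 (−0.19, adjusted p = 0.0463). On chromosome 21 the tested genes nearest SUMO3 were at a median of −0.63 in ATRX_KO and −0.07 in DAXX_KO in control, as log2 fold changes. SUMO3 was therefore above its neighbours in both knockouts, and the part of the surrounding genes was not tested.

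The ratio of SUMO3 to SUMO2 counts, which does not depend on how libraries are scaled, had nearly the same mean in WT cells with and without etoposide and a higher one in the knockouts. In WT of the DAXX series it was 0.332, 0.356 and 0.393 in control and 0.348, 0.387 and 0.346 with etoposide, whereas in DAXX_KO it was 0.842, 0.821 and 0.785 and 1.15, 1.05 and 1.17. The groups of DAXX_KO did not overlap each other or WT. The means were 0.360 ± 0.0304 (SD, n = 3), 0.360 ± 0.0227, 0.816 ± 0.0288 and 1.12 ± 0.0648, in that order. In WT of the ATRX series the ratio was 0.308, 0.300 and 0.320 and 0.288, 0.343 and 0.301, and in ATRX_KO it was 0.471, 0.572 and 0.390 and 0.343, 0.445 and 0.526. The ATRX_KO control libraries were above all WT libraries, the lowest ATRX_KO etoposide library was level with the highest WT etoposide library, and control and etoposide overlapped within ATRX_KO. With 3 libraries against 3, the exact permutation test (two-sided) cannot go below p = 0.1, and it gave 0.1 for each knockout against WT under each treatment and for etoposide in DAXX_KO. It also gave 0.1 between the WT controls of the series, whose means were 0.360 (DAXX) and 0.309 (ATRX) without overlap. For etoposide in WT it gave 1.0 for the DAXX series and 0.9 for the ATRX series. The summed level of both paralogs fell with etoposide from 938 ± 44.2 to 547 ± 11.1 CPM in WT of the DAXX series and from 1048 ± 24.2 to 492 ± 2.05 in WT of the ATRX series (SD, n = 3). In DAXX_KO the sum was 737 ± 23.5 in control and 590.3 ± 19.0 with etoposide, and in ATRX_KO 678 ± 64.7 and 503 ± 88.0. In control the sums of both knockouts were below WT without overlap, and with etoposide that of DAXX_KO was above WT without overlap and that of ATRX_KO overlapped it. The genes around SUMO2 and SUMO3 had median changes of −0.57 and −0.07 in DAXX_KO control and of −0.33 and −0.63 in ATRX_KO control. Their part in the ratio was not tested.

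**Figure D3:**
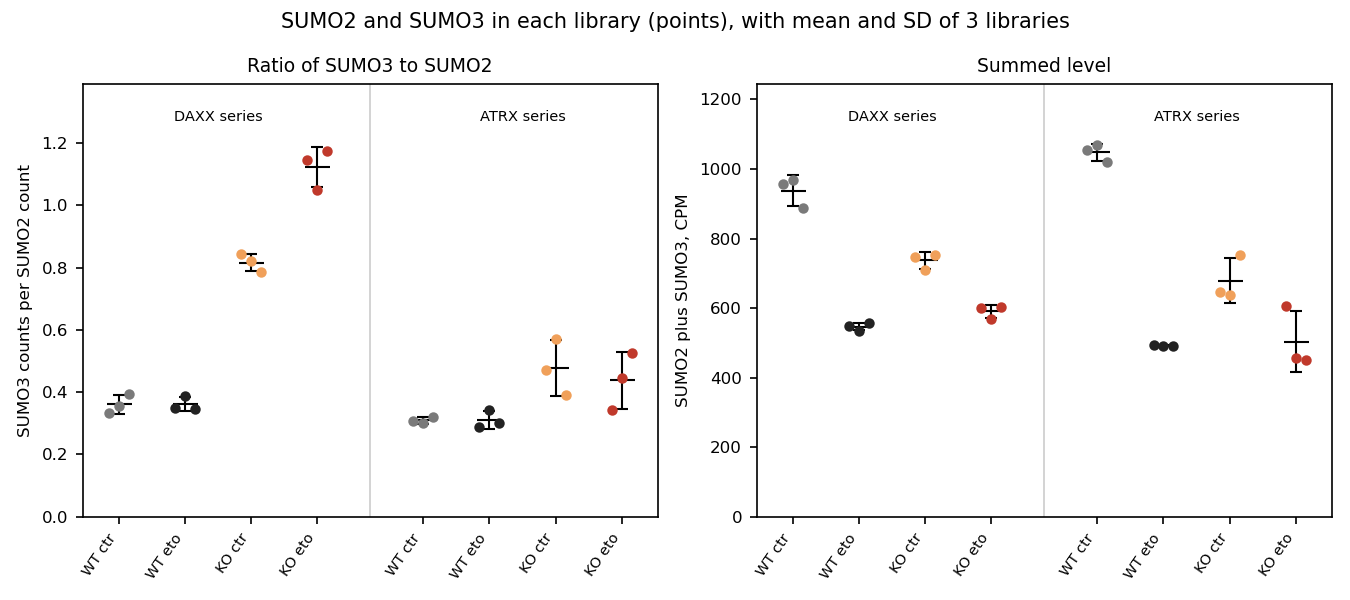
SUMO3 counts per SUMO2 count (left, y axis from 0) and summed CPM of both genes (right, y axis from 0) in the 24 libraries, as points over the 4 groups of each series, with a bar for the mean and whiskers for the SD of 3 libraries. The ratio was 0.360 ± 0.0304 in WT control of the DAXX series and 1.12 ± 0.0648 in DAXX_KO with etoposide (SD, n = 3).

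SENP1 (ENSG00000079387, chromosome 12, 48433567 to 48499862, minus strand), a protease that matures SUMO and takes it off its targets, fell with etoposide in WT cells and in both knockouts. SENP1 in the DAXX series was at 58.4, 60.4 and 58.4 CPM in WT control, 31.7, 28.4 and 32.1 in WT with etoposide, 60.9, 51.9 and 58.4 in DAXX_KO control and 38.4, 36.0 and 36.7 in DAXX_KO with etoposide. Both control groups lay together, and the DAXX_KO etoposide libraries were above those of WT. The responses were −0.93 (SE 0.09, adjusted p = 1.46e-08) in WT and −0.62 (SE 0.08, adjusted p = 3.64e-06) in DAXX_KO. In the ATRX series the libraries held 60.8, 66.1 and 68.5 CPM, 32.6, 36.4 and 37.4, 57.6, 53.2 and 53.8 and 37.9, 40.9 and 37.1 in the same order, with responses of −0.85 (SE 0.08, adjusted p = 1.41e-07) in WT and −0.52 (SE 0.08, adjusted p = 6.58e-05) in ATRX_KO. The interactions of 0.31 (adjusted p = 0.0931) and 0.34 (adjusted p = 0.0609) did not pass, and that of ATRX_KO passed with DESeq2 (0.36, adjusted p = 0.037) and under 3 other settings. The control libraries of ATRX_KO were below those of WT and the etoposide libraries overlapped. ATRX_KO differed from WT in control by −0.24 (SE 0.08, adjusted p = 0.024), a call lost without WT control replicate 2 or 3 or ATRX_KO control replicate 2 or 3 (largest adjusted p = 0.0871). DAXX_KO was higher with etoposide by 0.26 (SE 0.09, adjusted p = 0.0176), a call lost without WT etoposide replicate 2 (0.21, adjusted p = 0.0948) or DAXX_KO etoposide replicate 1 (0.24, adjusted p = 0.0534). This call was also lost with DESeq2 (0.24, adjusted p = 0.0623) and with no filter (0.25, adjusted p = 0.0711).

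SENP6 (ENSG00000112701, chromosome 6, 76311225 to 76427997, plus strand), which trims SUMO2 and SUMO3 chains, was higher in DAXX_KO in control and overlapped WT with etoposide. The DAXX_KO control libraries held 38.8, 40.2 and 40.6 CPM, compared with 29.1, 28.2 and 25.2 in DAXX_KO with etoposide, 27.4, 29.4 and 30.7 in WT control and 25.7, 25.0 and 31.0 in WT with etoposide. The DAXX_KO control libraries were above all others of the series. The knockout effect in control was 0.45 (SE 0.10, adjusted p = 0.000599) and the response in DAXX_KO −0.53 (SE 0.10, adjusted p = 0.000135), whereas the response in WT was −0.08 (adjusted p = 0.503). The interaction was −0.45 (SE 0.14, adjusted p = 0.0403). It was not called under 4 of 7 alternatives, among them DESeq2 (−0.43, adjusted p = 0.0841) and no filter (−0.44, adjusted p = 0.0809). With 9 of the 12 libraries left out singly it was no longer called, farthest without WT etoposide replicate 3, at −0.34 (adjusted p = 0.14). In the ATRX series all 4 groups overlapped, with libraries from 26.5 to 37.1 CPM, and none of the comparisons within the series was called for SENP6. The knockout effect there was 0.05, with a 95% confidence interval of −0.18 to 0.28. Without ATRX_KO control replicate 2 the response in ATRX_KO was −0.28 (adjusted p = 0.0475).

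PIAS1 (ENSG00000033800, chromosome 15, 68346647 to 68490941, plus strand), a SUMO E3 ligase, fell with etoposide in WT cells and was lower in DAXX_KO in control. It had the fewest counts of the 8 genes. PIAS1 in the DAXX series was at 27.0, 22.8 and 29.8 CPM in WT control, 16.9, 17.2 and 16.4 in WT with etoposide, 18.2, 17.4 and 17.6 in DAXX_KO control and 14.4, 17.5 and 11.2 in DAXX_KO with etoposide. The WT control libraries were above all others, and the DAXX_KO etoposide libraries spread widely. The response in WT was −0.64 (SE 0.14, adjusted p = 0.000461) and the knockout effect in control −0.58 (SE 0.14, adjusted p = 0.00124). The response in DAXX_KO was −0.30 (adjusted p = 0.0903) and the difference from WT with etoposide −0.24 (adjusted p = 0.176), and both passed without DAXX_KO etoposide replicate 2, at −0.47 (adjusted p = 0.0108) and −0.41 (adjusted p = 0.0264). Libraries of the ATRX series held 29.0, 26.2 and 27.0 CPM in WT control, 21.1, 18.5 and 16.8 in WT with etoposide, 25.3, 25.1 and 26.9 in ATRX_KO control and 20.2, 27.2 and 24.1 in ATRX_KO with etoposide. PIAS1 changed in WT by −0.52 (SE 0.12, adjusted p = 0.00109), while within ATRX_KO the groups overlapped (−0.12, adjusted p = 0.416) and the interaction did not pass (0.40, adjusted p = 0.114). ATRX_KO exceeded WT with etoposide by 0.32 (SE 0.12, adjusted p = 0.038), with overlapping libraries, and this was not called without any 1 of 4 etoposide libraries, for example 0.21 (adjusted p = 0.198) without ATRX_KO replicate 2. The call was also lost under 4 of 8 alternatives, DESeq2 among them (0.32, adjusted p = 0.0564).

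**Figure D4:**
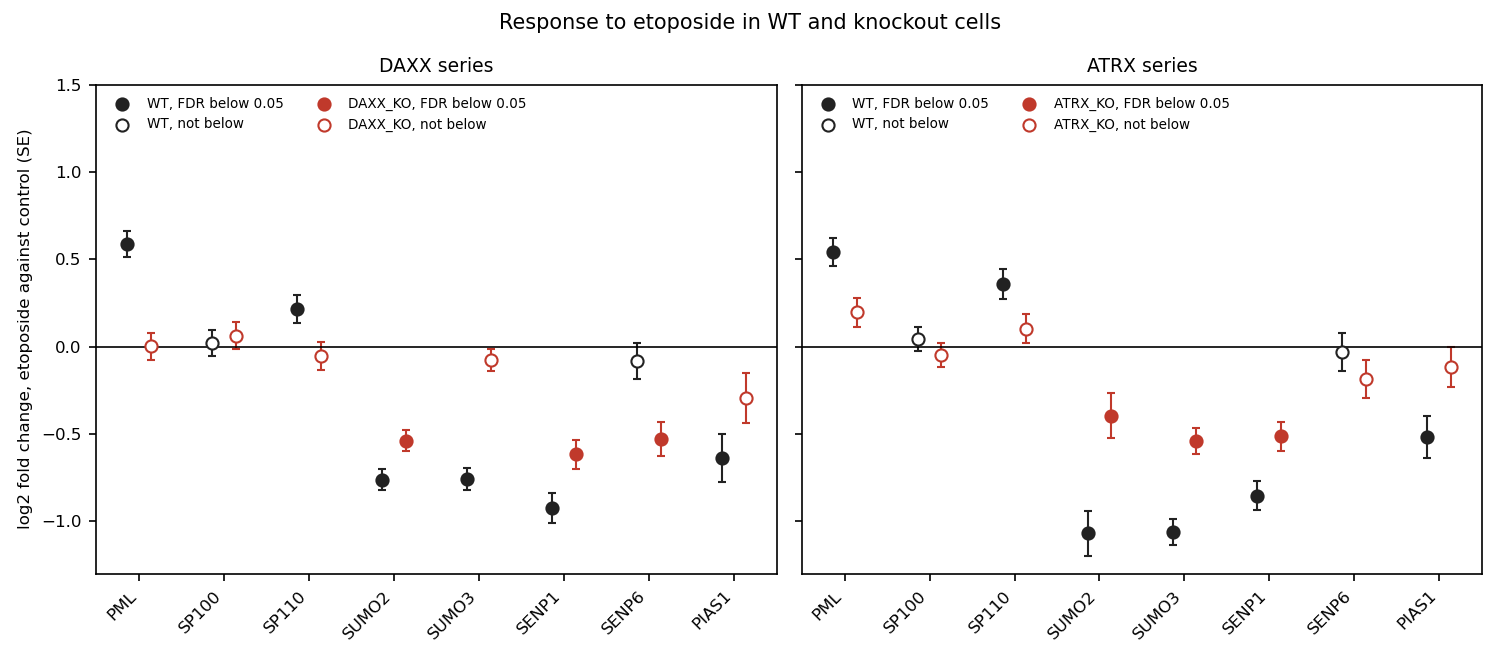
Log2 fold change of each gene with etoposide against control (y axis, points, with whiskers of 1 SE) in WT (black) and knockout cells (red), for the DAXX series (left) and the ATRX series (right). Filled points have an adjusted p below 0.05. PML was at 0.59 in WT and 0.00 in DAXX_KO, and SUMO3 at −0.76 and −0.08.

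Whether a knockout effect differed between DAXX_KO and ATRX_KO was tested in a model of all 24 libraries, as the difference of the effects, each taken against the WT of its own series. In control 6 of the 8 genes differed, with 34.1% of 16674 genes called. The effect of DAXX_KO exceeded that of ATRX_KO for SUMO3 by 0.61 (SE 0.09, adjusted p = 7.73e-06), for PML by 0.43 (SE 0.11, adjusted p = 0.00323) and for SENP6 by 0.41 (SE 0.14, adjusted p = 0.0284). It was below that of ATRX_KO for SP100, with −0.57 (SE 0.10, adjusted p = 5.30e-05), for PIAS1, with −0.49 (SE 0.18, adjusted p = 0.0342), and for SP110, with −0.41 (SE 0.12, adjusted p = 0.00682). The effect on SUMO2 did not differ by this test (0.03, 95% confidence interval −0.28 to 0.34), nor did that on SENP1 (0.20, adjusted p = 0.176). With etoposide 5 genes differed, with 34.5% of genes called, SUMO3 (0.75, adjusted p = 5.86e-07) being above and PIAS1 (−0.57, adjusted p = 0.0196), SP100 (−0.46, adjusted p = 0.000643), SP110 (−0.45, adjusted p = 0.00317) and SUMO2 (−0.44, adjusted p = 0.0249) below. For SUMO2 this was −0.24 (adjusted p = 0.117) without ATRX_KO etoposide replicate 1, and it was also not called without WT etoposide replicate 3 of the DAXX series (−0.43, adjusted p = 0.051) or replicate 2 of the ATRX series (−0.43, adjusted p = 0.0516). In control the SENP6 difference lost its call with 8 of the 24 libraries left out singly (largest adjusted p = 0.113) and that of PIAS1 with 7 (largest adjusted p = 0.0911). With library totals alone PIAS1 was not called in control (−0.37, adjusted p = 0.123), nor was SP110 (−0.29, adjusted p = 0.0582). The PIAS1 difference with etoposide lost its call with 3 of the 24 libraries left out singly (largest adjusted p = 0.0751). For the tested genes nearest SUMO3 on chromosome 21, the median difference was 0.73 in control and 0.53 with etoposide. The part of these genes in the SUMO3 difference was not tested.

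The WT control libraries of the series were compared as well, since a series and any batch of its libraries cannot be told apart. PML was higher in the ATRX series (0.25, adjusted p = 0.0266) and SP110 lower (−0.30, adjusted p = 0.0137), while 13.2% of genes were called. Each of these calls was lost with 4 of the 24 libraries left out singly, and both were lost, leaving 0 of the 8 genes called, without WT control replicate 1 of the DAXX series, without replicate 1 of the ATRX series and without its replicate 3. In the first of these cases PML was at 0.25 (adjusted p = 0.081) and SP110 at −0.28 (adjusted p = 0.0625). The other 6 genes had log2 differences of −0.08 (SP100) to 0.21 (SUMO2).

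Genes of the same pathways were followed in 7 lists written from general knowledge. SP140 and SP140L, relatives of SP100 and SP110 in the same cluster, were both higher in ATRX_KO control cells and were called with opposite signs in DAXX_KO. SP140 was 10.9 ± 1.16 CPM in WT control and 35.7 ± 1.76 in DAXX_KO control (SD, n = 3), and 6.29 ± 0.976 in WT and 79.4 ± 1.95 in ATRX_KO. The differences were 1.71 (SE 0.12, adjusted p = 5.06e-10) in DAXX_KO and 3.66 (SE 0.11, adjusted p = 2.93e-13) in ATRX_KO, and SP140 was higher in both knockouts with etoposide too, by 2.78 and 3.15. In control SP140L was lower in DAXX_KO (−0.27) and higher in ATRX_KO (0.63), and it rose with etoposide in WT by 0.65 and 1.24. Between cells treated with etoposide, SP140L was lower in DAXX_KO than in WT and was not called in ATRX_KO. SP140 was lower with etoposide in WT of the DAXX series (−1.01, adjusted p = 1.21e-05) and was not called in WT of the ATRX series (0.29, adjusted p = 0.0752). Reads of these paralogs can be divided between them by the counting, so their values are uncertain to that extent.

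Of 14 partners of PML bodies, 8 were lower and 1 higher in DAXX_KO in control, with a median log2 fold change of −0.49, and 7 were lower and 2 higher in ATRX_KO, with a median of −0.29. Among all genes tested 53.4% and 41.8% were called, with a median of 0.02 in both. H3-3B, one of the genes of histone H3.3, the cargo of DAXX and ATRX, was 1953 ± 37.2 CPM in WT and 750.4 ± 30.6 in DAXX_KO (SD, n = 3), a change of −1.38 (SE 0.05, adjusted p = 8.42e-14). In ATRX_KO the other H3.3 gene, H3-3A, changed by −0.99 (SE 0.10, adjusted p = 8.08e-07). Both have pseudogenes that can share reads, so their values are uncertain to that extent. Neighbouring genes were summarized for the 8 genes alone, and the part of surrounding genes in the changes of H3-3B and H3-3A was not tested. TRIM28, a corepressor of KRAB zinc finger proteins, changed by −1.24 (SE 0.10, adjusted p = 4.57e-08) in ATRX_KO, and ASF1A, another H3 chaperone, by −1.01 (SE 0.14, adjusted p = 1.35e-05). HIPK2, a kinase of the p53 pathway held in PML bodies, changed by −0.89 (SE 0.07, adjusted p = 1.30e-09) in DAXX_KO and BLM, a helicase of recombination, by −0.89 (SE 0.15, adjusted p = 3.96e-05), while UBN1, a subunit of the HIRA chaperone of H3.3, rose by 0.62 (SE 0.07, adjusted p = 3.51e-07). In ATRX_KO the genes that rose were TOPORS (0.49) and CREBBP (0.36).

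With etoposide, 8 of the 14 partners were lower and 3 higher in WT cells of each series, with medians of −0.35 and −0.42, compared with 0.02 and 0.07 over all genes, of which 60.2% and 61.5% were called. The 3 that rose in each were TDG, a DNA glycosylase that binds SUMO, by 1.08 and 1.71, TOPORS, an E3 ligase of PML bodies, by 0.77 and 0.83, and MORC3, an ATPase of PML bodies, by 0.45 and 0.49. The lowest value of the list was that of HIPK2 in WT of the DAXX series, at −1.53 (SE 0.07, adjusted p = 2.67e-13), and that of BLM in WT of the ATRX series, at −1.62 (SE 0.12, adjusted p = 3.80e-09). USP7, a ubiquitin protease, was lower in both (−1.05 and −1.14). With etoposide in the knockouts, the list had 6 lower and 2 higher in DAXX_KO, with a median of −0.09, and 7 lower and 3 higher in ATRX_KO, with a median of −0.32, against 54.5% and 49.5% of all genes called.

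Both subunits of the SUMO E1, the enzyme that activates SUMO, fell with etoposide in WT and knockout cells. Of the 4 genes tested in the list of SUMO paralogs, E1 and E2, 3 were lower with etoposide in WT of each series. In DAXX_KO 3 were lower and 1 higher with etoposide, and in ATRX_KO 3 were lower. The medians were −0.60, −0.56, −0.42 and −0.53 in that order, with 60.2%, 61.5%, 54.5% and 49.5% of all genes called. In control all 4 were lower in DAXX_KO and 2 were lower in ATRX_KO, with medians of −0.56 and −0.16. Among all genes tested 53.4% and 41.8% were called there, with a median of 0.02 in both. UBA2, the catalytic subunit, changed by −0.79 (SE 0.07, adjusted p = 2.60e-08) in DAXX_KO and −0.52 (SE 0.08, adjusted p = 3.88e-05) in ATRX_KO, and with etoposide in WT by −1.43 (SE 0.08, adjusted p = 3.46e-12) for the DAXX series and −1.61 (SE 0.08, adjusted p = 3.54e-11) for the ATRX series. It fell from 162 ± 8.26 to 59.3 ± 1.79 CPM in the former (SD, n = 3). UBA2 fell with etoposide in DAXX_KO (−0.91) and ATRX_KO (−1.09) too. SAE1, the other E1 subunit, fell with etoposide in all 4 comparisons (−0.69, −0.52, −0.66 and −0.84).

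The 10 E3 ligases and cofactors besides PIAS1 were mixed, with 2 higher and 2 lower in DAXX_KO in control and 5 higher and 4 lower in ATRX_KO, and medians of −0.13 and 0.10, against 53.4% and 41.8% of all genes called. PIAS3 was higher in both, by 0.91 (SE 0.10, adjusted p = 3.01e-07) and 0.42 (SE 0.09, adjusted p = 0.00152), and PIAS2 lower in both (−0.68 and −0.35). NSMCE2, the ligase of the SMC5/6 complex, was lower in ATRX_KO (−0.91, SE 0.13, adjusted p = 2.21e-05). With etoposide, PIAS4 rose in WT by 0.75 and 0.68, whereas PIAS2 was lower (−1.53 and −1.26), so that PIAS1 and PIAS2 fell and PIAS4 rose. Of the 7 other SUMO proteases, 5 were lower with etoposide in WT of each series, with medians of −0.52 and −0.56. Over all genes 60.2% and 61.5% were called in these comparisons, and the medians were 0.02 and 0.07. SENP3 and SENP7 were lower in WT (−0.88 and −1.40 for SENP3, −0.71 and −1.09 for SENP7) and with etoposide in both knockouts. DESI1 rose in WT of the DAXX series (0.45) and was lower in DAXX_KO in control (−0.49).

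Of 6 SUMO-targeted ubiquitin ligases and SUMO-binding repair proteins, 3 were lower with etoposide in WT of each series, with medians of −0.38 and −0.54, and 2 were higher in WT of the first and 1 in WT of the second, against the same 60.2% and 61.5% of all genes called. Those lower were SMC5 and SMC6, the core of a complex that holds broken chromosomes together, and RNF4, the ligase that ubiquitinates SUMO chains on PML. SMC6 changed by −1.27 and −1.33, SMC5 by −1.19 and −1.13 and RNF4 by −1.01 and −1.05, while RAD52, a recombination protein, rose by 0.95 and 0.66. In control SMC6 was lower in DAXX_KO (−1.01, SE 0.09, adjusted p = 7.65e-09) and higher in ATRX_KO (0.25, SE 0.08, adjusted p = 0.0126). Among 25 interferon genes, the class to which PML, SP100 and SP110 are known to belong, 13 were higher and 2 lower with etoposide in WT of the DAXX series and 15 higher and 3 lower in WT of the ATRX series, with medians of 0.71 and 0.71. Of all genes 60.2% and 61.5% were called, with medians of 0.02 and 0.07, so the number called in the list says little about it in either series. The largest rises were those of IRF7, a transcription factor, from 1.36 ± 0.0966 to 12.3 ± 1.16 CPM in the DAXX series (SD, n = 3), ISG20 (2.88 and 3.18) and TRIM22 (2.10 and 2.41). In control, 10 of the 25 were higher in each knockout, with 3 lower in DAXX_KO and 4 in ATRX_KO and medians of 0.36 and 0.36, while 53.4% and 41.8% of all genes were called, with a median of 0.02 in both. Called interactions in this list numbered 0 higher and 1 lower in DAXX_KO and 0 higher and 5 lower in ATRX_KO, while 14.2% and 16% of all genes had one.

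**Figure D5:**
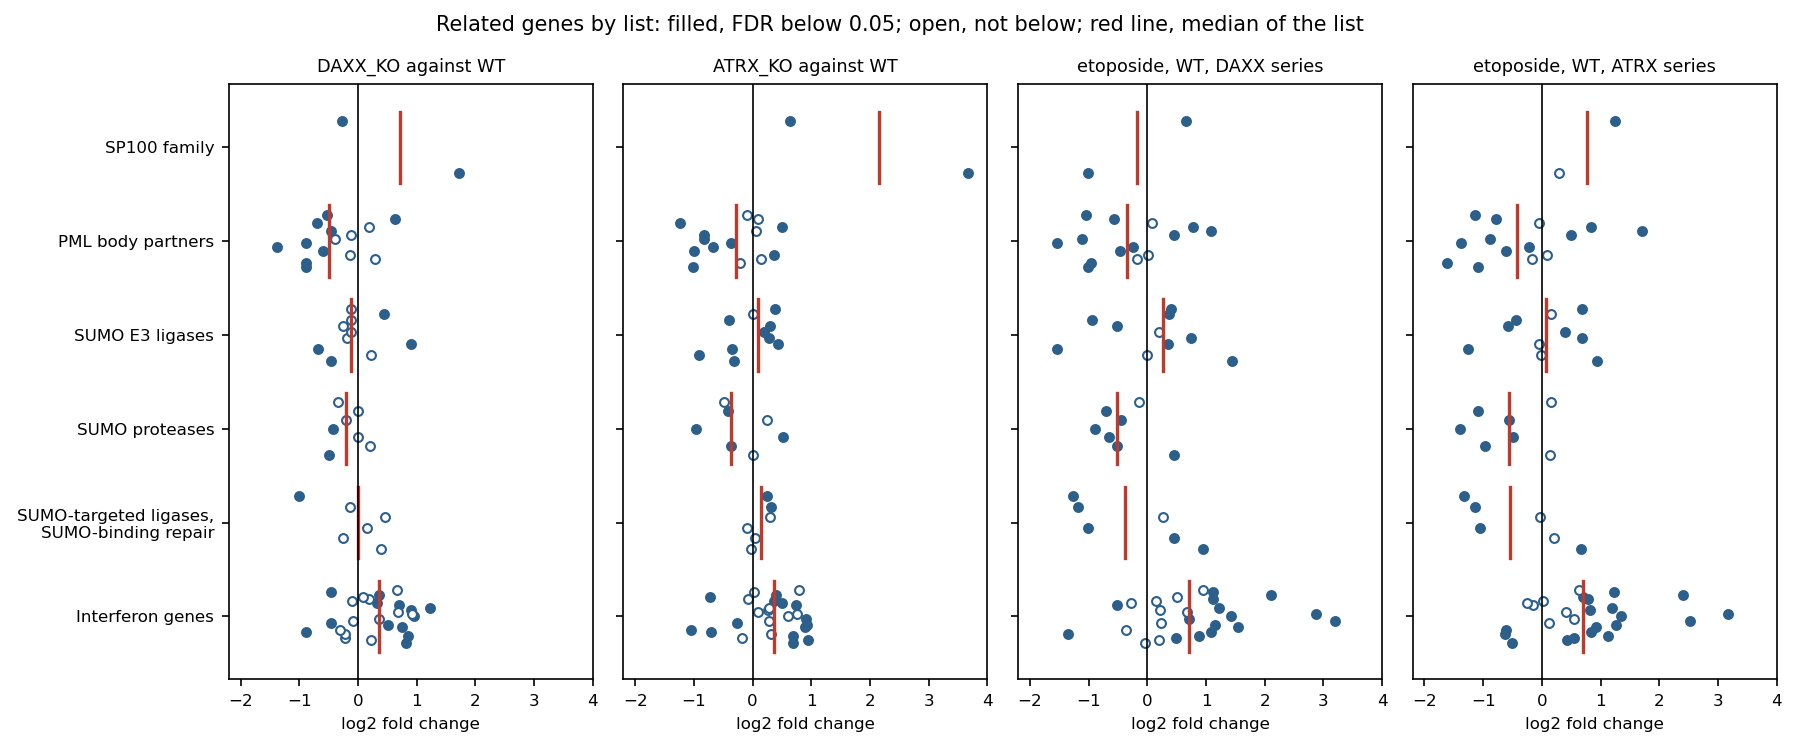
Log2 fold changes (x axes) of the related genes in 6 of the lists (y axis), in DAXX_KO and ATRX_KO against WT in control and with etoposide against control in WT of each series. Each point is 1 gene, filled where the adjusted p is below 0.05, and the red line is the median of the list, which for the interferon genes was 0.71 and 0.71 with etoposide.

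The genes whose levels followed each of the 8 most closely were found by Pearson's r over the 24 log2 CPM values, with each series centred on its mean, among 15038 genes tested in both series. The points share groups, treatments and library scaling, so r is a description. The 2 closest genes were CHST3 (0.95) and SNHG25 (0.95) for PML, TSPAN13 (0.89) and TFG (0.89) for SP100 and TMF1 (0.93) and CYSTM1 (0.88) for SP110. For SUMO2 they were AP1M1 (0.98) and MAP7D1 (0.97), and for SUMO3 UBAC1 (0.97) and CAMSAP1 (0.97). The closest to SENP1 were VKORC1L1 (0.98) and SPTBN1 (0.98), to SENP6 AHR (0.84) and RBMS3 (0.82) and to PIAS1 SELENOI (0.94) and ARMC8 (0.93). None of these 16 genes is among the 8 or in the 7 lists. For the members other than SUMO2 and SUMO3, the 30 tested genes on each side had median log2 fold changes of −0.13 to 0.15 in DAXX_KO and 0.00 to 0.08 in ATRX_KO in control.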

How the data were processed

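The data were 24 QuantSeq 3′ mRNA libraries of U87-T cells, in 8 groups of 3. The authors mapped 75-base single-end reads to hg19 with STAR and estimated reads per gene with RSEM on an Ensembl annotation, and they deposited these estimated counts as whole numbers for 57736 gene IDs, with no further normalization. Reads that map to several genes are divided by RSEM's estimate, which can move counts between paralogs. Gene symbols came from GENCODE release 44 placed on GRCh37, which matched 55501 IDs holding 98.8% of the counts. Groups followed the sample titles, since another label of the DAXX_KO libraries names ATRX as the gene knocked out.

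Counts were tested with edgeR 4.0.16 in R 4.3.3 by the quasi-likelihood test, with TMM scaling, the filterByExpr filter (minimum count 10, minimum total 15), Benjamini-Hochberg adjustment over all genes tested and a threshold of 0.05. Each series was fitted with its 12 libraries and 4 groups, and differences between series with all 24. Confidence intervals (95%) are those of the fitted log2 fold change. The spread between libraries, as edgeR's common BCV, was 0.0825 (DAXX series), 0.106 (ATRX series) and 0.0960 (both). CPM used TMM factors over 24 libraries, and 3 counts, a floor for counting error, equal 0.215 to 0.407 CPM in a library. The script was tested on simulated counts. Every pair of libraries of a group differed by more than counting error (chi-square per degree of freedom 2.16 to 17.1 over 24 pairs). The exact permutation test served for the SUMO3 to SUMO2 ratio. Figures were drawn with matplotlib 3.10.9.

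Alternatives were DESeq2 1.42.0 (the test of the study), RLE size factors, library totals alone, no filter, a stricter one (10 or more counts in each library), all 24 libraries or the compared groups alone in the model, the replicate number as a block, and each library left out in turn. The 8 genes and the 7 lists were chosen with earlier results of these data known. The text names, besides the 8 genes, DAXX, ATRX, up to 3 called genes with the largest change in each direction per list and comparison, and the 2 genes most correlated with each of the 8. Some genes of the lists are not reported here. Marker genes of U87 and of glia were listed as a check of the line.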

Additional observations from a re-analysis of the deposited data

Results flagged for a closer look

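The response to etoposide differed between knockout and WT cells, by the interaction term of edgeR's quasi-likelihood test, for 5 results. In the DAXX series the interaction was −0.59 for PML, 0.68 for SUMO3 and −0.45 for SENP6 on the log2 scale. In the ATRX series it was 0.52 for SUMO3 and 0.67 for SUMO2. SUMO3 passed in both series with the same sign, its fall with etoposide being smaller in the knockout. The SENP6 interaction was not called under 4 of 7 alternatives, nor with 9 of the 12 libraries left out singly.

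The effect of the knockout differed between DAXX_KO and ATRX_KO for 11 results, by the difference of the effects in the model of 24 libraries. Among all genes tested, 34.1% had a called difference in control and 34.5% with etoposide. In control the difference, DAXX_KO minus ATRX_KO, was 0.61 for SUMO3, 0.43 for PML, 0.41 for SENP6, −0.41 for SP110, −0.49 for PIAS1 and −0.57 for SP100. With etoposide it was 0.75 for SUMO3, −0.44 for SUMO2, −0.45 for SP110, −0.46 for SP100 and −0.57 for PIAS1. SUMO3, SP100, SP110 and PIAS1 passed under both treatments with the same sign. The PIAS1 call was lost under each treatment with some single libraries left out. In control the calls of PIAS1 and SP110 were lost with library totals alone. The tested genes nearest SUMO3 on chromosome 21 had median differences of 0.73 in control and 0.53 with etoposide. Each line is 1 clone, so a difference between the knocked-out genes and a difference between clones cannot be told apart.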

How the results depend on the processing

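Of 56 calls over the 13 comparisons of the 8 genes, 40 held under every alternative that could be run for them and with each library left out in turn, and none of the values that were called changed sign. The number of the 8 genes called moved by over 1.5 times in these cases. With library totals alone it rose from 3 to 5 for etoposide in DAXX_KO, where this scaling shifted the median of all genes by −0.11. With no filter it was 3 in place of 5 for each knockout against WT with etoposide and 1 in place of 2 between the WT controls of the series, and with DESeq2 it was 3 in place of 5 for DAXX_KO against WT with etoposide. With all 24 libraries in the model it was 4 in place of 2 for the ATRX_KO interaction. With 1 library left out it ranged from 3 to 6 for each knockout against WT with etoposide, from 2 to 5 for etoposide in ATRX_KO and from 0 to 3 between the WT controls.

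Pairing of the libraries by replicate number was not detected. The correlations of deviations from the group means ran from −0.209 to 0.051 within a series and from −0.143 to 0.122 between series. They cannot exclude pairing, since how the libraries of a group were grown is not given. With the replicate number as a block 1 gene in place of 2 was called between the WT controls, and in the other comparisons the number stayed within 1.5 times. Library totals alone shifted the median of all genes by 0.18 for DAXX_KO against WT in control, by −0.11 for the DAXX_KO interaction and by 0.12 for the difference of the knockout effects in control, and the absence of a filter shifted it by 0.13 for etoposide in WT of the DAXX series and by 0.16 for etoposide in ATRX_KO. PIAS1 and SENP6 had the fewest counts, and calls on them at small changes were among those that single libraries decided. An alternative chosen after seeing the data left out each library of a group from the mean SUMO3 to SUMO2 ratio, which was then 0.803 to 0.831 in DAXX_KO control, 1.10 to 1.16 in DAXX_KO with etoposide, 0.431 to 0.521 in ATRX_KO control and 0.394 to 0.485 in ATRX_KO with etoposide.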
